A study of Mus musculus with 24 samples.

Results

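The complement and coagulation factors made by the liver were followed through 40 genes, 19 of complement and 21 of coagulation, fibrinolysis and their inhibitors. The members were chosen by name, and each symbol matched 1 row among the 53677 gene identifiers of the count matrix. All 40 had enough reads to be tested, together with 14533 genes in all. RNA sequencing was done on livers of 24 mice, 1 library per mouse. The groups were 6 mice of strain 129S1/SvImJ on high-fat diet, 5 of 129S1/SvImJ on chow, 7 of C57BL/6J on high-fat diet and 6 of C57BL/6J on chow. Both are inbred strains, and the labels name no transgene or drug. Age, sex, what the diets contained and how long they were fed are not stated there. The design asks what the high-fat diet does in each strain, how the strains differ on each diet, and whether the diet effect differs between strains.

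Hepatocytes secrete most of the complement and clotting proteins of plasma. Complement is a chain of proteases started by antibody-bound C1, by lectins that bind microbial sugars or by spontaneous turnover of C3, and it ends in a pore built from C5b to C9. Clotting is a second chain of proteases that ends in thrombin, which turns fibrinogen into fibrin; plasmin then dissolves fibrin, and serpins hold the proteases in check. Many of these genes are acute-phase genes, raised in hepatocytes by interleukin-6, and their promoters commonly bind the hepatocyte factors HNF4 and C/EBP.

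The promoters of 5 members that recur below are shown: the 3 fibrinogen chains, which lie side by side on chromosome 3, F11, which had the largest strain difference, and C9, which had the largest diet rise in 129S1/SvImJ. Each is the 250 bases before the RefSeq start of transcription in GRCm38.p6, the genome of C57BL/6J, read 5′ to 3′ along the gene; the 129S1/SvImJ sequence was not used here. Capitals mark matches to CTGGGA (the core of the type II interleukin-6 response element) or TTGCNNAA (a C/EBP motif), searched on both strands. Fga lies at chr3:83025903-83026152, plus strand, Fgb at chr3:83049864-83050113, minus strand, Fgg at chr3:83007474-83007723, plus strand, F11 at chr8:45262032-45262281, minus strand, and C9 at chr15:6445096-6445345, plus strand.
Fga: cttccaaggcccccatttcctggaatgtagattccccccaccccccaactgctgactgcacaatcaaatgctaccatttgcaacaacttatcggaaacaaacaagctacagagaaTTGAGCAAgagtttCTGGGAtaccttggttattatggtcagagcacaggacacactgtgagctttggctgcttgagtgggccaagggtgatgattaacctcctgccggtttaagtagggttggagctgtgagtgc
Fgb: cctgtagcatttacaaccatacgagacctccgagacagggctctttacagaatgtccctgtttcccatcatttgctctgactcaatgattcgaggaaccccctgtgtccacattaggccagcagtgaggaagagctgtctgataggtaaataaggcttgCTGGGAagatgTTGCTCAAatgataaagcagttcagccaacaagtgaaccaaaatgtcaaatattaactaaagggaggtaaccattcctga
Fgg: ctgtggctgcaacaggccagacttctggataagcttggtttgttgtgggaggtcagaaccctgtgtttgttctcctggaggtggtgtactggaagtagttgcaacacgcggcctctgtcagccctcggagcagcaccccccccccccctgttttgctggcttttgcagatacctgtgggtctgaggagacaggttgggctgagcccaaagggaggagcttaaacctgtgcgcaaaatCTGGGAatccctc
F11: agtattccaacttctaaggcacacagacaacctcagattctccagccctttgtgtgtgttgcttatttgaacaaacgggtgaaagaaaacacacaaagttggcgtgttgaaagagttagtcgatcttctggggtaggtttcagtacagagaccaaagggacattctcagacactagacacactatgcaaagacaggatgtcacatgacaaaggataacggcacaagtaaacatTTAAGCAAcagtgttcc
C9: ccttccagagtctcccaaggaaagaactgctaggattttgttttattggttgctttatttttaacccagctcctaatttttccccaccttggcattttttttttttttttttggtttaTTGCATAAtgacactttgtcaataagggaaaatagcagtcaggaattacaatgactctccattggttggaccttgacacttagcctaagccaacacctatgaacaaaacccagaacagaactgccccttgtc

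The Fga promoter held CTGGGA 121 to 116 bases before the start and the C/EBP motif at 135 to 128. Fgb held both words too, at 91 to 86 and 80 to 73 bases before the start. Fgg held CTGGGA at 13 to 8 and no C/EBP motif. F11 and C9 each held 1 C/EBP motif, at 17 to 10 and 132 to 125. The table covered 31 of the 40 members. CTGGGA was found in 14 of these 31 (45.2%), against 29.8% of all 27025 promoters of the table, and TTGCNNAA in 9 (29.0%), against 10.8%. TATAAA was found in 2 (6.45%), against 14.3%. These matches of letters were not tested as binding sites. All positions count from the RefSeq start. In the annotation GENCODE M21, Fga begins at chr3:83026076 and C9 at chr15:6445327, which lie inside the windows shown.

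Total counts per library ran from 6707013 to 13124881. Levels below are CPM, counts scaled by edgeR to the size of the library; they compare a gene between mice. All 9 hepatocyte markers found were read in every group, and their summed level ran from 80690 to 101600 CPM on high-fat diet and 93240 to 112500 CPM on chow in 129S1/SvImJ, and from 81340 to 98450 CPM on high-fat diet and 108500 to 115200 CPM on chow in C57BL/6J. In whole liver, fewer hepatocytes and less RNA per hepatocyte cannot be told apart. In C57BL/6J, 2 libraries stood at the ends of their groups. High-fat library 5 was the lowest of its 7 for 31 of the 40 members, and chow library 3 the highest of its 6 for 33. High-fat library 5 was also the only library with an adipocyte marker at 1 CPM or more, with 3.28 CPM. Counts of the 7SK RNA (Rn7sk) took 0.208% to 0.699% of a library. The 24 libraries were also split at the median of the 7SK level into 2 sets of 12. Whether this level is technical or biological was not tested.

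Measured per length, as TPM, the levels of the members spanned a wide order. C3, the protein on which all complement pathways meet, was the highest with a mean of 4683 TPM over all 24 libraries (lowest 2779, highest 6448). Fga, Fgg and Fgb, the fibrinogen chains, followed at 4191, 4166 and 2732 TPM, then Plg at 1995 TPM and Kng1 at 1426 TPM. The ranges of C3, Fga and Fgg over the libraries overlapped, and so did those of Fgb and Plg. At the low end stood Pros1 at 58.9 TPM, C2 at 36.96 TPM and Cfb at 7.97 TPM. The last 2 are uncertain: 42.8% of the exon bases of C2 and 79.5% of those of Cfb are shared on the same strand with the annotated read-through gene Gm20547, which had 0 counts in every library.

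The members together took 4.15% ± 0.18 of all gene counts in 129S1/SvImJ on high-fat diet and 4.21% ± 0.20 in 129S1/SvImJ on chow, and 3.23% ± 0.39 in C57BL/6J on high-fat diet and 4.10% ± 0.41 in C57BL/6J on chow (SD, n = 6, 5, 7 and 6). The C57BL/6J mice on high-fat diet thus stood lower than the other groups. Their libraries ran from 2.58% to 3.77%, overlapping the lowest chow library of the strain, at 3.67%. The fibrinogen chains alone took 0.815% ± 0.12 in C57BL/6J on high-fat diet and 1.19% ± 0.20 in C57BL/6J on chow.

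**Figure D1:**
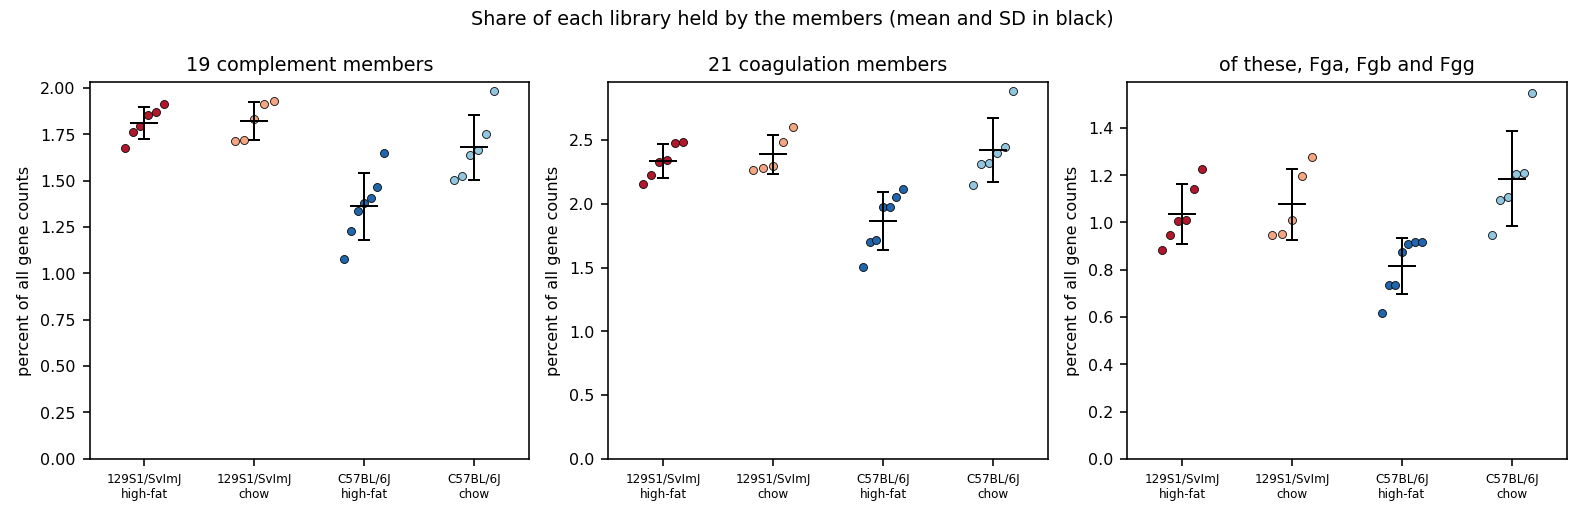
Percent of all gene counts held by the 19 complement members, the 21 coagulation members and, from that second set, the 3 fibrinogen chains. Each point is 1 mouse, and black bars give mean and SD; C57BL/6J mice on high-fat diet averaged 1.36% for complement, against 1.68% on chow, and 1.87% for coagulation, against 2.42% on chow.

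In C57BL/6J, high-fat diet lowered 19 of the 40 members (47.5%) and raised 0, where 7.2% of all genes tested were lower and 7.66% higher. The fall reached fibrinogen, antithrombin, C3, C5, prothrombin, plasminogen and the contact system, and the 19 fell by 14.6% (F2) to 52.0% (C8b). The median log2 fold change of the members was -0.23, against 0.01 for all genes, and 37 of 40 were below 0. Calls are at an adjusted p under 0.05 by edgeR's quasi-likelihood test over all genes, and values after ± beside a log2 fold change are SE. In 5 members, Fga, Fgb, Fgg, Serpinc1 and Kng1, the change was called and the diets did not overlap, where 3.74% of all genes tested were called and did not overlap. No member was higher even at an unadjusted p under 0.05, or with DESeq2 or limma-voom. Of the role classes, all 3 coagulation serpins, 3 of 3 fibrinogen chains, 3 of 5 contact genes, 3 of 6 terminal complement genes, 2 of 4 vitamin K-dependent zymogens and 2 of 4 classical pathway genes were lower. None of the 4 lectin pathway genes passed.

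Fga, the alpha chain of fibrinogen, ranged from 2315 to 3732 CPM (median 3329) in C57BL/6J on high-fat diet, against 3784 to 6428 CPM (median 4770) on chow. Every high-fat mouse lay below every chow mouse, and the log2 fold change was -0.63 ± 0.12, adjusted p = 0.000875. Fgb, the beta chain, ranged from 1963 to 3018 CPM (median 2927) on high-fat diet, against 3052 to 5551 CPM (median 3735) on chow, and changed by -0.58 ± 0.12, adjusted p = 0.00230. Fgg, the gamma chain, ranged from 1649 to 2581 CPM (median 2491) on high-fat diet, against 2596 to 4306 CPM (median 3236) on chow, and changed by -0.54 ± 0.11, adjusted p = 0.00188. The groups did not overlap for any of the 3 chains. Their proportions moved little: the log2 ratio Fga/Fgb was 0.26 ± 0.08 on high-fat diet and 0.31 ± 0.08 on chow (SD), a difference of -0.05 (exact permutation p = 0.288, two-sided, Benjamini-Hochberg 0.475 over 28 ratio comparisons), and Fgg/Fgb differed by 0.04 (exact permutation p = 0.469). F13b, the carrier subunit of the factor that crosslinks fibrin, did not pass, at -0.18 ± 0.07, adjusted p = 0.0959.

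The serpins that inhibit clotting proteases and plasmin fell too. Serpinc1, antithrombin, ranged from 1303 to 1625 CPM (median 1496) on high-fat diet, against 1761 to 1902 CPM (median 1819) on chow, with no overlap and a log2 fold change of -0.31 ± 0.06, adjusted p = 0.00100. Serpinf2, which inhibits plasmin, changed by -0.45 ± 0.12, adjusted p = 0.0132. Of the exon bases of Serpinc1, 34.4% overlap Zbtb37 on the opposite strand, and the strand setting of the counting is not given in the sources used here. Serpind1, heparin cofactor II, changed by -0.26 ± 0.08, adjusted p = 0.0281. Thus inhibitors of thrombin and plasmin, thrombin's precursor and plasmin's precursor were lower in the same livers. Plg, plasminogen, changed by -0.35 ± 0.10, adjusted p = 0.0154, and F2, prothrombin, ranged from 1188 to 1524 CPM (median 1348) on high-fat diet, against 1460 to 1710 CPM (median 1547) on chow (-0.23 ± 0.06, adjusted p = 0.0176). F10, whose active form cuts prothrombin, changed by -0.33 ± 0.09, adjusted p = 0.0155. F7 and F9 did not pass, at -0.23 ± 0.13 and 0.04 ± 0.07. Proc, whose product inactivates factors V and VIII, and F5 had values of -0.22 ± 0.08 and -0.16 ± 0.06 and did not pass.

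In the contact system, which starts clotting on negatively charged surfaces and releases bradykinin, Kng1 carried the clearest change. Kng1, a kininogen, ranged from 1170 to 1500 CPM (median 1339) on high-fat diet, against 1626 to 1985 CPM (median 1644) on chow, without overlap (-0.37 ± 0.07, adjusted p = 0.00115). Klkb1, prekallikrein, ranged from 139.7 to 254 CPM (median 184) on high-fat diet, against 248 to 279 CPM (median 262) on chow (-0.39 ± 0.09, adjusted p = 0.00560); only the highest high-fat mouse reached the chow range. F11 changed by -0.60 ± 0.17, adjusted p = 0.0235. F12, which starts this system, had -0.11 ± 0.06 and did not pass. Reads of Kng1 and its near copy Kng2 may be divided between them, and 43.2% of the exon bases of Klkb1 are shared with the annotated gene Gm45753. Kng2 had -0.20 ± 0.08 and did not pass.

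Among complement genes 7 of 19 fell, and C3 is the most abundant of them. It ranged from 4283 to 7093 CPM (median 5691) on high-fat diet, against 6009 to 9683 CPM (median 8130) on chow, with the lowest chow mouse inside the high-fat range (-0.52 ± 0.11, adjusted p = 0.00183). C1ra, a protease of the C1 complex, ranged from 85.8 to 151 CPM (median 131) on high-fat diet, against 149 to 189 CPM (median 166) on chow (-0.42 ± 0.09, adjusted p = 0.00380). Its partner C1s1 had -0.14 ± 0.06 and did not pass, and C2, the protease of the classical C3 convertase, changed by -0.43 ± 0.13, adjusted p = 0.0300. Hc, complement C5, ranged from 845 to 1450 CPM (median 1138) on high-fat diet, against 1154 to 2115 CPM (median 1485) on chow (-0.39 ± 0.11, adjusted p = 0.0189). Of the chains of C8, the protein that anchors the pore, C8a changed by -0.39 ± 0.13, adjusted p = 0.0409 and C8g had -0.05 ± 0.08 and did not pass. C8b spread the widest of all members, at 25.8 to 352 CPM (median 216) on high-fat diet, against 280.3 to 569.9 CPM (median 407) on chow (-1.06 ± 0.34, adjusted p = 0.0420). C9 ranged from 292 to 674 CPM (median 536) on high-fat diet, against 374 to 771 CPM (median 582.2) on chow, and did not pass (-0.15 ± 0.17). Cfi, the protease that cuts C3b and C4b, changed by -0.25 ± 0.08, adjusted p = 0.0232. C4b, Cfb, C4bp and Serping1 did not pass, with log2 fold changes between -0.16 and 0.01.

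The size of this count depended in part on the libraries at the ends. Of the 19 calls, 12 held whichever of the 24 libraries was left out, and without both C57BL/6J chow library 3 and high-fat library 5, a setting chosen after seeing the data, 11 held: Fga, Fgb, Fgg, Serpinc1, Serpinf2, Kng1, Klkb1, F11, C3, C1ra and C8b. Hc lost its call without chow library 3 (adjusted p = 0.0660). Cfi lost it without chow library 3 or high-fat library 1, 5 or 7 (up to 0.0706), and F11 without chow library 1 or high-fat library 2 or 7 (up to 0.0604). Serpind1 lost it without chow library 3 or 4 or high-fat library 2, 5 or 7 (up to 0.0696), and C2 without chow library 1 or 3 or high-fat library 1, 2, 5 or 7 (up to 0.0671). C8a kept its call in 14 of 24 such fits and C8b in 15. Within the lower 12 by 7SK, with 3 mice a diet in C57BL/6J, 0 members were called and their median was -0.09; within the upper 12 18 were called and it was -0.38. All genes called lower there numbered 91 and 630. Both C57BL/6J libraries at the ends belong to the upper 12. With 7SK level as a covariate in a fit of all 24 libraries, the member median was -0.231, against 0.008 for all genes. The part of 7SK level in the difference between the 2 sets was not tested. Of the 9 hepatocyte markers, Alb, Apoa1 and Cps1 were also lower (-0.43, -0.37 and -0.65) and Cyp3a11 was higher (0.81). Of these calls, 2 held whichever library was left out. Of the 6 stellate cell markers, the collagen genes Col1a1 (1.95) and Col3a1 (1.44) were higher and 0 lower, and both lost the call without high-fat library 5 (adjusted p = 0.0801 and 0.0787). The summed level of the 6 ran from 406 to 1010 CPM on high-fat diet and 411 to 590 CPM on chow. The part of these markers in the result was not tested.

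In 129S1/SvImJ the same diet raised 4 members and lowered 1, against 5.41% of all genes higher and 5.01% lower, so the shares of 10% and 2.5% lay near the background. No member was called for diet in both strains, which does not by itself show that the diet effects differ. That difference is tested below as the interaction. In 3 members, C9, F9 and Cpb2, the change was called and the diets did not overlap, as in 5.97% of all genes tested. The median was 0.08, against 0.00 for all genes, and 26 of 40 were above 0. F9, the factor IX of hemophilia B, ranged from 244 to 275 CPM (median 251) on high-fat diet, against 189, 188, 203, 203 and 189 CPM on chow, without overlap (0.39 ± 0.08, adjusted p = 0.00191). C9, the pore-forming subunit, ranged from 641 to 1062 CPM (median 750.0) on high-fat diet, against 434, 402, 515, 447 and 522 CPM on chow, again without overlap (0.80 ± 0.19, adjusted p = 0.00685). That is a 1.75-fold level, the largest rise of any member. Pros1, protein S, the cofactor of protein C, ranged from 63.8 to 86.3 CPM (median 75.3) on high-fat diet, against 44.8, 51.6, 57.1, 58.7 and 66.0 CPM on chow, where the highest chow mouse passed the lowest high-fat mouse (0.45 ± 0.11, adjusted p = 0.00903). Cpb2, a carboxypeptidase that slows the lysis of fibrin, ranged from 241 to 289.7 CPM (median 267) on high-fat diet, against 184, 187, 218, 224 and 234 CPM on chow, without overlap (0.35 ± 0.09, adjusted p = 0.0110). Mbl2, a mannose-binding lectin, ranged from 129.7 to 174 CPM (median 163) on high-fat diet, against 172, 184, 232, 195 and 183 CPM on chow (-0.29 ± 0.08, adjusted p = 0.0268).

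The 4 rises held whichever library was left out. The fall of Mbl2 did not, with an adjusted p of up to 0.0993 without chow library 3 or high-fat library 3 or 6. Within the upper 12 by 7SK, which holds 2 chow mice, neither the rises nor the fall were called, and within the lower 12 the 4 rises were called. None of the members that fell in C57BL/6J was called here. Fga ranged from 3597 to 5094 CPM (median 3880) on high-fat diet, against 4933, 3667, 5096, 4015 and 3908 CPM on chow (-0.08 ± 0.13). Serpinc1 ranged from 1811 to 1998 CPM (median 1970) on high-fat diet, against 1913, 1944, 2025, 1890 and 1969 CPM on chow (-0.01 ± 0.07), and the groups lay on top of each other. C3 ranged from 7589 to 8927 CPM (median 8705) on high-fat diet, against 9752, 10020, 9153, 8517 and 9041 CPM on chow (-0.13 ± 0.12). Fgb, Fgg, Hc and F2 had 0.03 ± 0.14, 0.00 ± 0.12, 0.24 ± 0.12 and -0.07 ± 0.07. That these 7 missed the threshold does not show that they were unaffected.

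**Figure D2:**
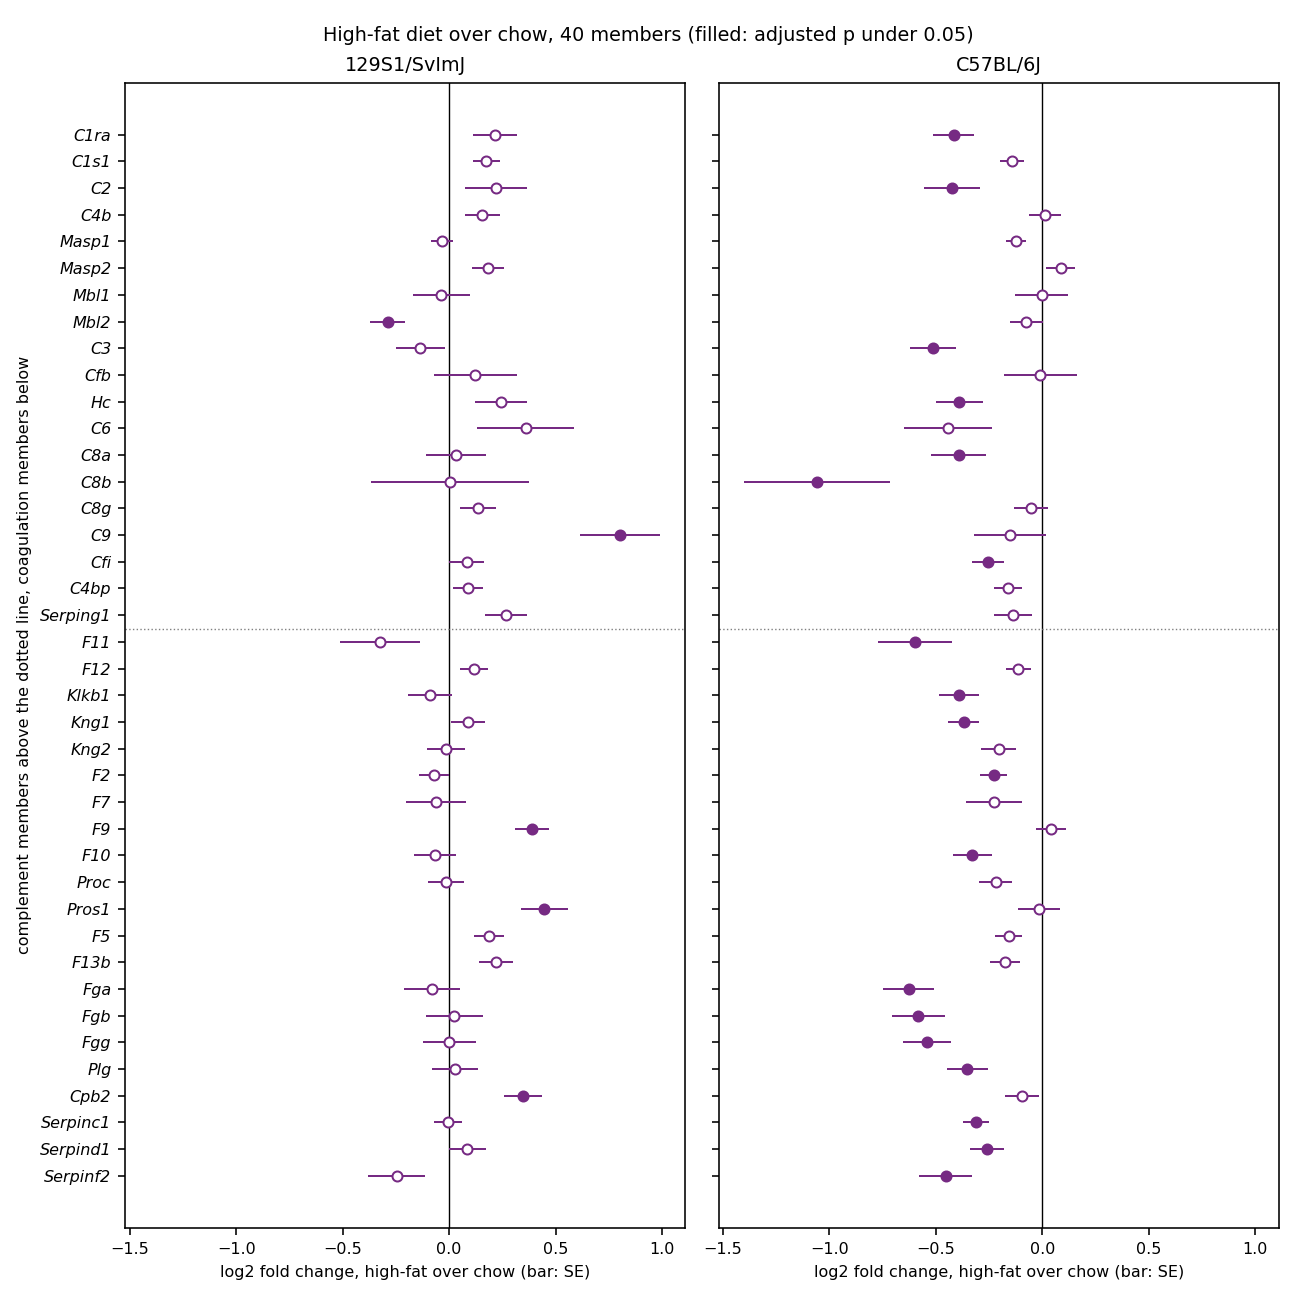
Log2 fold change of each of the 40 members for high-fat diet over chow in 129S1/SvImJ (left) and C57BL/6J (right), with SE, filled where the adjusted p was under 0.05. In 129S1/SvImJ 5 members are filled and the median is 0.08; in C57BL/6J 19 are filled, all left of 0, with a median of -0.23.

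The difference between the 2 diet effects was tested directly, as the interaction. Only C1ra, 1 of the 40 members, passed, with a diet effect 0.63 log2 units higher in 129S1/SvImJ than in C57BL/6J (SE 0.14, adjusted p = 0.0446), where 43 of 14533 genes (0.296%) passed. C1ra ranged from 151 to 176 CPM (median 167) on high-fat diet, against 142, 145, 115, 152 and 159.5 CPM on chow in 129S1/SvImJ (0.22 ± 0.10), a value above 0 that missed the threshold. Its call held in 5 of the 24 fits that left out a library, and its adjusted p reached 0.116 without 129S1/SvImJ chow library 2. The next by p were Kng1 (0.46 ± 0.11, adjusted p = 0.0560) and Hc (0.63 ± 0.17, adjusted p = 0.0774), which missed the threshold, as did C9 (0.96 ± 0.25, adjusted p = 0.0797). The interaction was above 0 for 38 of the 40 members, with a median of 0.34, against -0.01 for all genes, and 26 had an unadjusted p under 0.05, as had 2077 of all genes. Fibrinogen was among them, at 0.55 ± 0.18 for Fga, 0.61 ± 0.19 for Fgb and 0.54 ± 0.17 for Fgg, with adjusted p of 0.148 for Fga and 0.127 for Fgg. A different diet effect in the strains was therefore not shown for single members other than C1ra. DESeq2 called 9 members and limma-voom 0.

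On high-fat diet the strains differed widely: 29 members (72.5%) were higher in 129S1/SvImJ than in C57BL/6J and 1, F12, was lower, where 17.9% of all genes were higher and 19.1% lower. The median was 0.36, against 0.01 for all genes, and 34 of 40 were above 0. This comparison uses the same C57BL/6J high-fat mice as the diet comparison, so the 2 results are not independent; 18 of the 19 members lower on diet in C57BL/6J are among the 29, and C2 is not. In 15 of the 40 members the difference was called and no mouse of one strain reached the other. Of all genes tested, 14.9% were called and separated in this way. All 4 vitamin K-dependent zymogens, all 3 coagulation serpins, the fibrinogen chains with F13b, and 5 of 6 terminal complement genes were higher. Markers of other cell types also differed here: 5 of 8 Kupffer cell, 3 of 5 cholangiocyte and all 3 lymphocyte markers tested were lower in 129S1/SvImJ and 0 higher. Of these calls, 4, 3 and 1 held whichever library was left out. Of 6 stellate cell markers 2 were higher and 2 lower, and of 6 sinusoidal endothelial markers 1 was higher and 3 lower. Among erythroid markers 1 of 3 was higher, and so was the 1 platelet marker tested. The summed level of the cholangiocyte markers ran from 13.9 to 26.7 CPM in 129S1/SvImJ and 29.4 to 152 CPM in C57BL/6J, and that of the lymphocyte markers from 8.002 to 38.4 CPM in 129S1/SvImJ and 22.98 to 63.2 CPM in C57BL/6J. Of the 9 hepatocyte markers 1 was higher, Cps1, and 1 lower, Cyp3a11. The part of these markers in the result was not tested.

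F11, the zymogen of factor XIa, differed most. It ranged from 139.9 to 158 CPM (median 148) in 129S1/SvImJ, against 37.1 to 112.6 CPM (median 72.8) in C57BL/6J (1.05 ± 0.17, adjusted p = 5.43e-05), a 2.07-fold level. Masp1, a protease of the lectin pathway, had the smallest p and little spread, at 294 to 335 CPM (median 329) in 129S1/SvImJ, against 241 to 274 CPM (median 259.8) in C57BL/6J (0.33 ± 0.05, adjusted p = 3.87e-06). F10 ranged from 372 to 440.2 CPM (median 398) in 129S1/SvImJ, against 220.0 to 326 CPM (median 271) in C57BL/6J (0.57 ± 0.09, adjusted p = 2.28e-05). These 3 genes were separated without overlap, and so were Serpinc1, F13b, C8g, Serpind1 and C3. Serpinc1 differed by 0.40 ± 0.06, adjusted p = 8.93e-06, Serpind1 by 0.44 ± 0.08, adjusted p = 9.08e-05 and F13b by 0.47 ± 0.07, adjusted p = 9.74e-06. C8g differed by 0.48 ± 0.08, adjusted p = 2.06e-05. Masp2, the other lectin protease here, differed by 0.26 ± 0.07, adjusted p = 0.00436, and 54.9% of its exon bases overlap Tardbp on the opposite strand. C3 ranged from 7589 to 8927 CPM (median 8705) in 129S1/SvImJ, against 4283 to 7093 CPM (median 5691) in C57BL/6J (0.58 ± 0.11, adjusted p = 0.000118).

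Of the remaining fixed members, Hc differed by 0.48 ± 0.11, adjusted p = 0.00123 and C9 by 0.66 ± 0.17, adjusted p = 0.00347. F2 differed by 0.22 ± 0.06, adjusted p = 0.00793. Of the fibrinogen chains, Fgb was separated without overlap, and Fga and Fgg overlapped between strains. Fga differed by 0.38 ± 0.12, adjusted p = 0.0151, Fgb by 0.41 ± 0.12, adjusted p = 0.0105 and Fgg by 0.35 ± 0.11, adjusted p = 0.0175. Fga and Fgg lost the call without 129S1/SvImJ high-fat library 3 (adjusted p = 0.0538 and 0.0506). F12, factor XII, ranged from 347 to 413 CPM (median 366) in 129S1/SvImJ, against 386 to 445 CPM (median 416) in C57BL/6J (-0.16 ± 0.06, adjusted p = 0.0361), and its call held in 17 of 24 fits that left out a library. C4b lost the call without 129S1/SvImJ high-fat library 2, C8b without 129S1/SvImJ library 3 or 6 or C57BL/6J library 2 or 7, and Kng1 without 129S1/SvImJ library 2 or 4 or C57BL/6J library 2, 5 or 7. The other 24 calls held in every such fit, and 29 members were also higher without the 2 C57BL/6J libraries at the ends.

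**Figure D3:**
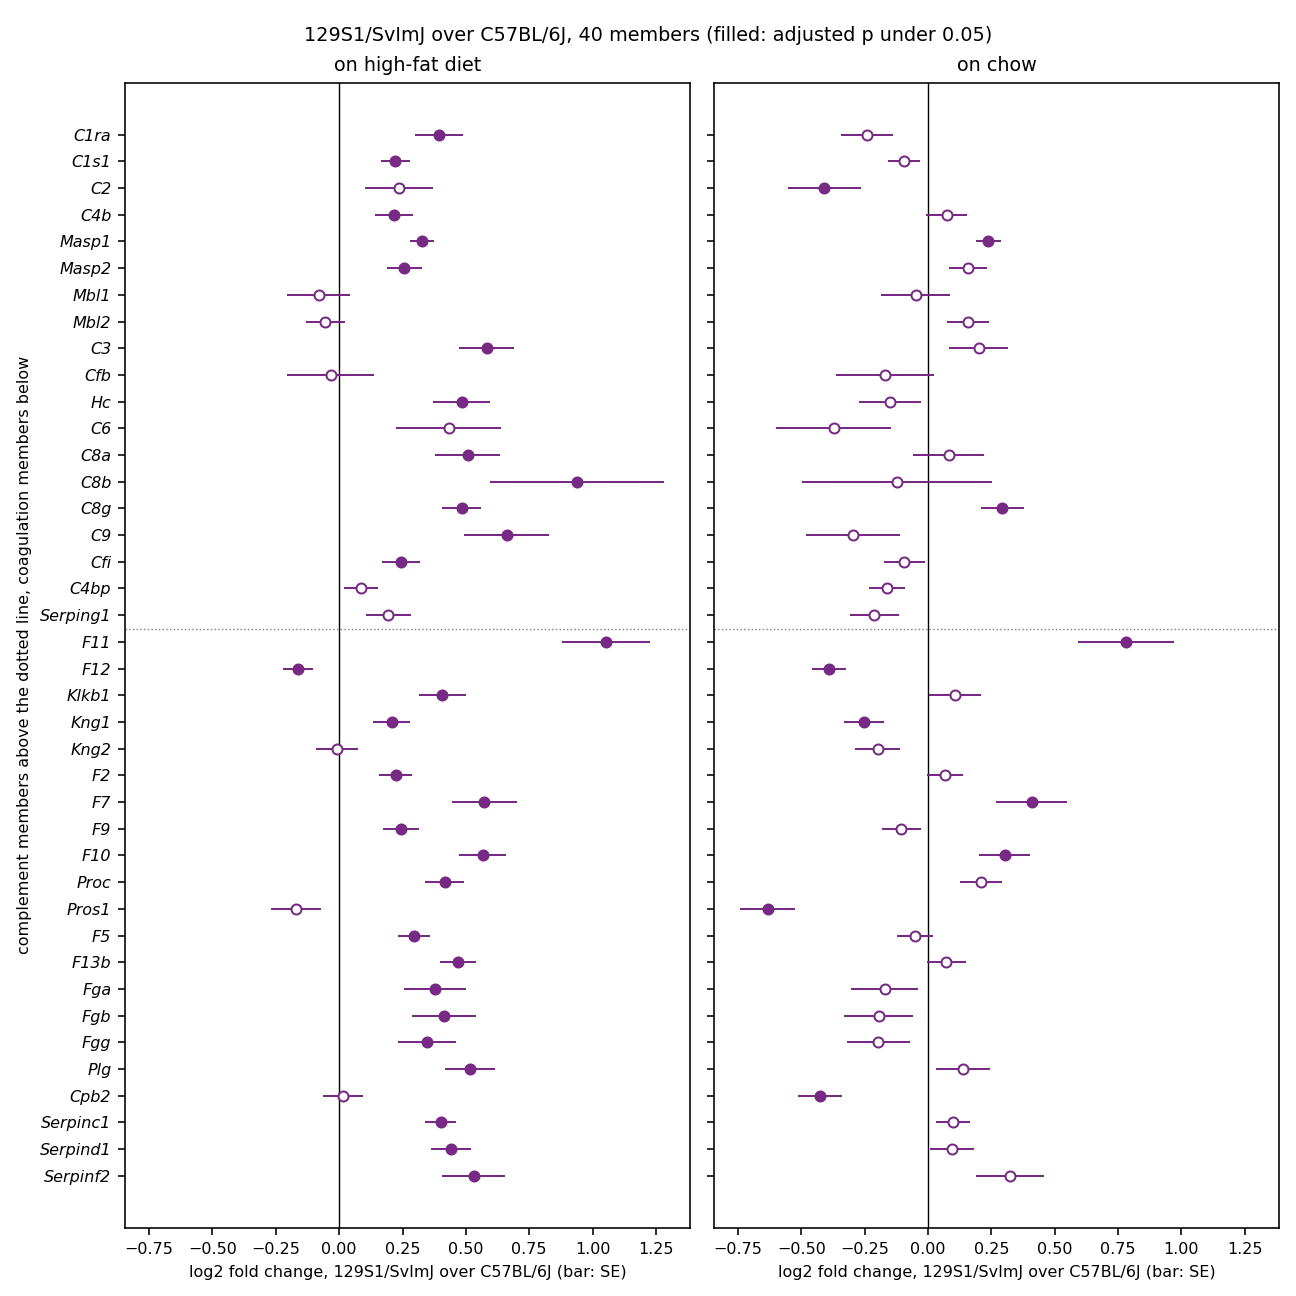
Log2 fold change of each of the 40 members for 129S1/SvImJ over C57BL/6J on high-fat diet (left) and on chow (right), with SE, filled where the adjusted p was under 0.05. On high-fat diet 29 members are filled right of 0 and 1 left of it; on chow 5 are filled on each side.

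On chow the strains differed in fewer members and in both directions: 5 were higher and 5 lower in 129S1/SvImJ (12.5% each), which equals the background of 12.6% higher and 12.5% lower. The median was -0.07, against 0.01 for all genes. The 5 higher were F11, Masp1, C8g, F10 and F7, and the same 5 were higher on high-fat diet. In 7 of the 40 members the difference was called and the strains did not overlap. Of all genes tested, 14.2% were called and separated in this way. F11 had 204, 194, 169, 162 and 198 CPM in 129S1/SvImJ, against 91.1 to 136 CPM (median 106) in C57BL/6J (0.78 ± 0.19, adjusted p = 0.00355). Masp1 had 324, 338, 324, 334 and 336 CPM in 129S1/SvImJ, against 269 to 289 CPM (median 281) in C57BL/6J (0.24 ± 0.05, adjusted p = 0.000863), so the strains kept apart on either diet. C8g differed by 0.29 ± 0.08, adjusted p = 0.0113, F10 by 0.30 ± 0.10, adjusted p = 0.0265 and F7 by 0.41 ± 0.14, adjusted p = 0.0349. F7 and F10, next to each other on chromosome 8, start the protease cascade from tissue factor.

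The 5 lower were F12, Pros1, Cpb2, Kng1 and C2. F12 had 354, 354, 298, 327 and 391 CPM in 129S1/SvImJ, against 421 to 483 CPM (median 451) in C57BL/6J, without overlap (-0.39 ± 0.07, adjusted p = 5.97e-05). Pros1 had 44.8, 51.6, 57.1, 58.7 and 66.0 CPM in 129S1/SvImJ, against 73.9 to 112 CPM (median 82.95) in C57BL/6J, without overlap (-0.63 ± 0.11, adjusted p = 8.73e-05). Cpb2 had 184, 187, 218, 224 and 234 CPM in 129S1/SvImJ, against 234 to 357 CPM (median 274) in C57BL/6J (-0.43 ± 0.09, adjusted p = 0.000608). Pros1 and Cpb2 are also 2 of the 4 members that high-fat diet raised in 129S1/SvImJ, and on that diet neither differed between strains at the threshold (-0.17 ± 0.10 and 0.02 ± 0.08); the chow mice of 129S1/SvImJ enter both comparisons. Kng1 had 1391, 1338, 1351, 1522 and 1536 CPM in 129S1/SvImJ, against 1626 to 1985 CPM (median 1644) in C57BL/6J (-0.25 ± 0.08, adjusted p = 0.0208), and it was the 1 member lower in 129S1/SvImJ on chow and higher on high-fat diet. C2 differed by -0.41 ± 0.15, adjusted p = 0.0414. The fixed members C3, Hc, C9, F2, Fga, Fgb, Fgg and Serpinc1 did not pass on chow, with log2 differences from -0.30 for C9 to 0.20 for C3.

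Of the 10 chow calls, F12, Pros1, Cpb2, Masp1 and F11 held whichever library was left out. C8g lost its call without 129S1/SvImJ library 3 (0.0538) and Kng1 without library 2 or 3 of that strain (up to 0.0608). F10 lost it without 129S1/SvImJ library 3 or C57BL/6J library 1, 2 or 5 (up to 0.118), and F7 without 129S1/SvImJ library 3 or 5 or C57BL/6J library 2, 4 or 5 (up to 0.0930). C2 kept it in 15 of 24 fits. Within the lower 12 by 7SK 3 members were higher and 3 lower, and within the upper 12 0 were higher and 4 lower.

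**Figure D4:**
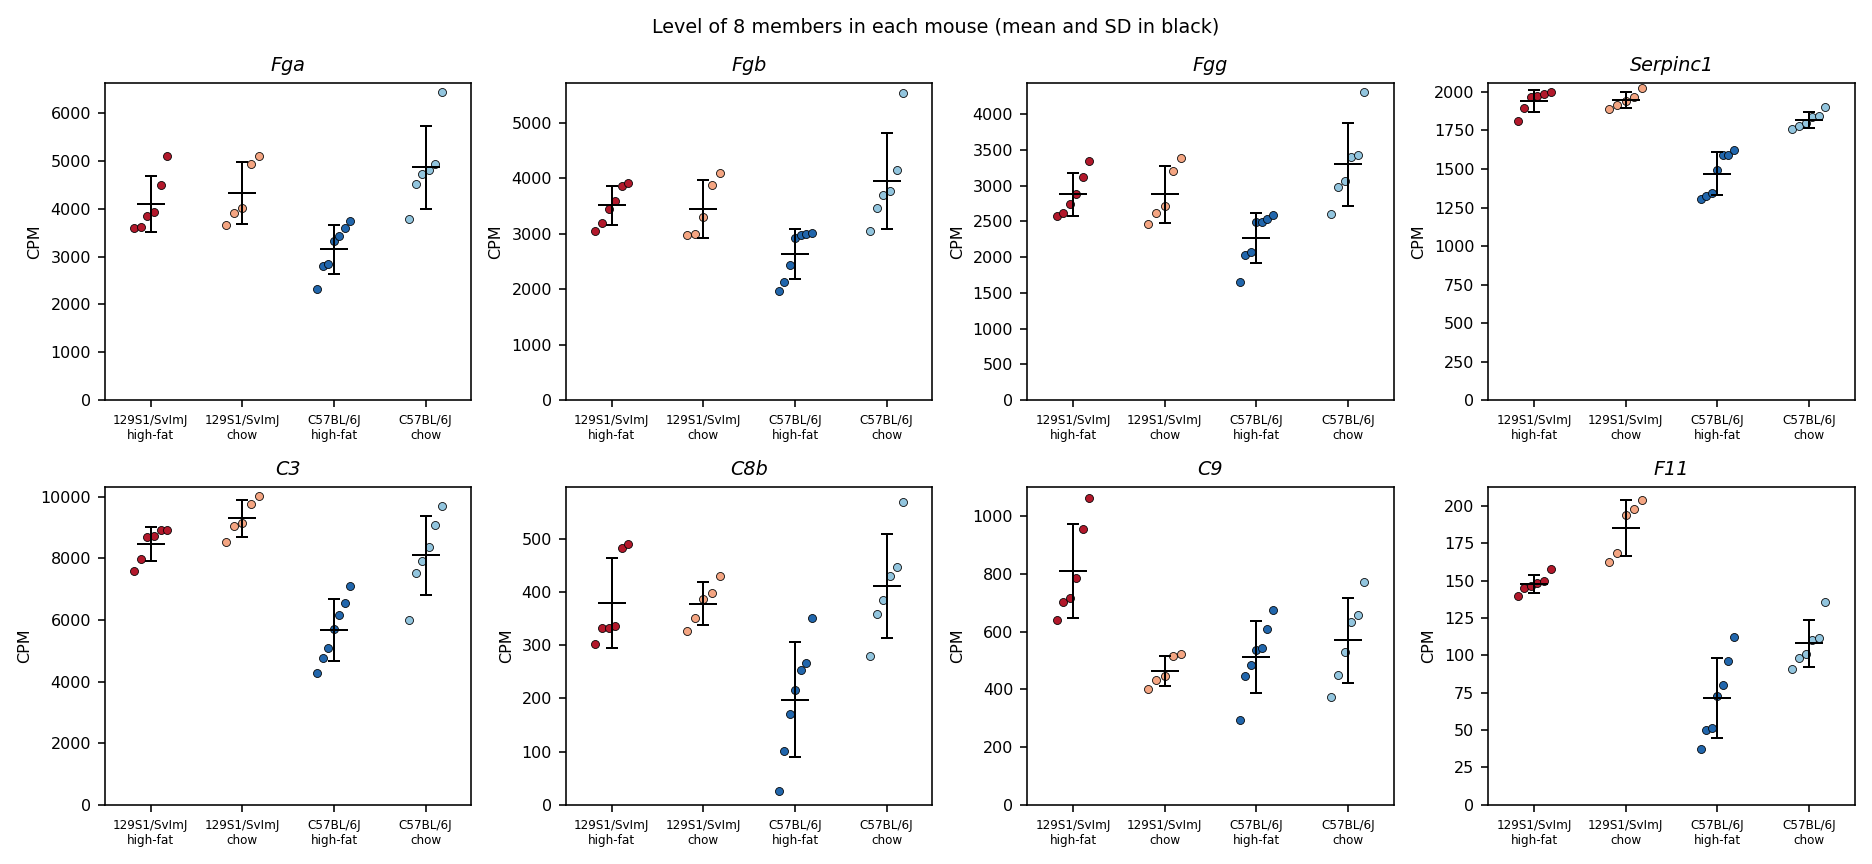
CPM of 8 members in each mouse, by group, with mean and SD in black. For Fga, Fgb, Fgg and Serpinc1 every C57BL/6J mouse on high-fat diet lies below every C57BL/6J mouse on chow; C9 is raised in 129S1/SvImJ on high-fat diet, and F11 is higher in 129S1/SvImJ on either diet.

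Proportions within complexes were compared for 7 pairs of chains or paralogs in 4 comparisons. None of the 28 passed after Benjamini-Hochberg adjustment of exact two-sided permutation tests, and 9 had an unadjusted p under 0.05. Nearest was the balance of the C8 chains for diet in C57BL/6J. The log2 ratio C8a/C8b ran from 1.45 to 3.91 on high-fat diet and 0.93 to 1.40 on chow (difference 0.93, exact permutation p = 0.0035, adjusted 0.0555), without overlap. The log2 ratio C1s1/C1ra averaged 1.75 ± 0.22 on high-fat diet and 1.46 ± 0.05 on chow (SD, difference 0.29, exact permutation p = 0.00641, adjusted 0.0555). Adjusted p was 0.0555 also for C8g/C8b and Kng2/Kng1 for diet in C57BL/6J and for Kng2/Kng1 between strains on high-fat diet. Up to 5 ratio comparisons passed with 1 library left out, without 129S1/SvImJ high-fat library 4 or C57BL/6J high-fat library 3 or 6.

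In all, 6 members were called in none of the 5 comparisons: C6, Cfb, C4bp, Mbl1, Serping1 and Kng2. C6, which joins the pore after C5b, had wide spread, at 277 to 645 CPM (median 369.6) in 129S1/SvImJ on high-fat diet, 318, 272, 300.3, 359 and 419.5 CPM in 129S1/SvImJ on chow, 150.0 to 404 CPM (median 332) in C57BL/6J on high-fat diet and 363 to 504 CPM (median 425) in C57BL/6J on chow. Serping1, the C1 inhibitor, ran from 661 to 773 CPM (median 693) in 129S1/SvImJ on high-fat diet, 575, 549, 601, 613 and 589 CPM on chow, 481 to 730.2 CPM (median 645) in C57BL/6J on high-fat diet and 579 to 832 CPM (median 664) on chow.

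Among 35 further complement genes, of which 30 were tested, high-fat diet raised 3 and lowered 4 in C57BL/6J, and raised 5 and lowered 1 in 129S1/SvImJ. The background over all genes was 7.66% higher and 7.2% lower in C57BL/6J, and 5.41% higher and 5.01% lower in 129S1/SvImJ. Cfd, factor D of the alternative pathway, known as a product of fat cells, ranged from 41.1 to 256 CPM (median 166) in C57BL/6J on high-fat diet, against 0.101 to 8.08 CPM (median 2.66) on chow (adjusted p = 1.17e-05), and stayed between 0 and 0.232 CPM in 129S1/SvImJ on high-fat diet. Of 4 adipocyte markers, none was tested, and their summed level in C57BL/6J ran from 0 to 6.31 CPM (median 0.119) on high-fat diet and 0 to 0.169 CPM (median 0.0803) on chow, with Lep and Plin1 at 0 in every chow library. Vtn, vitronectin, which keeps the terminal complex out of membranes, fell in C57BL/6J (-0.42 ± 0.10, adjusted p = 0.00419), Cfhr3 fell (-0.36 ± 0.09, adjusted p = 0.00793) and C5ar1, the C5a receptor, rose (0.88 ± 0.24, adjusted p = 0.0125). In 129S1/SvImJ the inhibitors Clu (0.36 ± 0.08, adjusted p = 0.00231) and Cd59a (0.51 ± 0.13, adjusted p = 0.0125) rose and Cfhr3 fell (-0.50 ± 0.10, adjusted p = 0.00190). Cfhr3 has near copies, so its values are uncertain.

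Between strains 8 of these 30 were higher and 13 lower in 129S1/SvImJ on high-fat diet, and 2 higher and 12 lower on chow. The background over all genes was 17.9% higher and 19.1% lower on high-fat diet, and 12.6% higher and 12.5% lower on chow. It applies to the marker counts below as well. C1qa, a chain of C1q made by macrophages, had 6.75 ± 1.73 CPM in 129S1/SvImJ on chow and 22.6 ± 5.12 CPM in C57BL/6J on chow (SD, n = 5 and 6; -1.75 ± 0.21, adjusted p = 6.71e-07). Cd59a, which blocks C9, was lower on high-fat diet (-0.90 ± 0.11, adjusted p = 5.59e-07) and on chow (-1.11 ± 0.13, adjusted p = 2.40e-07), as were Cd59b (-2.08 and -2.36) and C5ar2 on chow (-1.15 ± 0.19, adjusted p = 3.74e-05). Colec10, a lectin pathway collectin, was higher on high-fat diet (0.85 ± 0.10, adjusted p = 4.80e-07). All 8 Kupffer cell markers were lower in 129S1/SvImJ on chow, as were all 3 lymphocyte markers tested and 1 of 5 cholangiocyte markers. Of these calls, 6, 1 and 1 held whichever library was left out. Of 6 sinusoidal endothelial markers on chow 1 was higher and 3 lower, and of 6 stellate cell markers 1 was higher and 2 lower. On high-fat diet 5 of 8 Kupffer cell markers were lower. The summed level of the Kupffer cell markers ran from 104.1 to 249 CPM in 129S1/SvImJ and 189.6 to 480.4 CPM in C57BL/6J on high-fat diet, and from 70.5 to 188 CPM in 129S1/SvImJ and 206 to 338 CPM in C57BL/6J on chow; the part of these markers in these results was not tested.

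Among 37 further genes of clotting and fibrinolysis, 32 tested, high-fat diet raised 2 and lowered 7 in C57BL/6J and raised 1 and lowered 1 in 129S1/SvImJ. In C57BL/6J that is 6.25% higher and 21.9% lower, against 7.66% and 7.2% of all genes. In 129S1/SvImJ it is 3.125% each, below the 5.41% and 5.01% of all genes. In C57BL/6J 3 of the 4 listed genes of the inter-alpha-trypsin inhibitor heavy chain family fell: Itih2 (-0.60 ± 0.09, adjusted p = 0.000130), Itih1 (-0.43 ± 0.08, adjusted p = 0.000349) and Itih3 (-0.78 ± 0.15, adjusted p = 0.00105). Itih4 had -0.23 ± 0.11 and did not pass (adjusted p = 0.172). Hgfac, a factor XII-like protease, fell in both strains (-0.43 in C57BL/6J, adjusted p = 0.00105, and -0.37 in 129S1/SvImJ, adjusted p = 0.00914), and Hrg, histidine-rich glycoprotein, rose in 129S1/SvImJ (0.47 ± 0.11, adjusted p = 0.00482). Between strains 12 were higher and 9 lower in 129S1/SvImJ on high-fat diet, and 6 higher and 5 lower on chow. On high-fat diet that is 37.5% higher and 28.1% lower, against 17.9% and 19.1% of all genes. On chow it is 18.8% higher and 15.6% lower, near the background of 12.6% and 12.5%. Apoh, which binds phospholipid surfaces, was higher in 129S1/SvImJ on high-fat diet (0.63 ± 0.07, adjusted p = 3.54e-08) and on chow (0.50 ± 0.07, adjusted p = 9.92e-06), as was Ggcx, the carboxylase that modifies the vitamin K-dependent factors, on high-fat diet (0.51 ± 0.06, adjusted p = 1.17e-07). Lman1, which carries factor V out of the endoplasmic reticulum, was lower on chow (-0.42 ± 0.07, adjusted p = 3.43e-05), and so was Serpine2 (-3.36 ± 0.52, adjusted p = 3.93e-05). Mug2 was lower (-3.51 on high-fat diet and -3.41 on chow) and Mug1 higher on high-fat diet (1.16); these are near copies, and the genome used is that of C57BL/6J, so their values are uncertain.

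Of 12 regulators known to act on these genes in liver, 2 (16.7%) were lower on high-fat diet in C57BL/6J, against 7.2% of all genes. Hnf4a ranged from 455 to 903 CPM (median 592) on high-fat diet, against 593 to 987 CPM (median 921) on chow (-0.53 ± 0.13, adjusted p = 0.00798). Socs3, which is induced by interleukin-6 signaling and restrains it, ranged from 4.88 to 9.95 CPM (median 5.99) on high-fat diet, against 6.29 to 29.6 CPM (median 11.01) on chow (-1.20 ± 0.35, adjusted p = 0.0224). In 129S1/SvImJ, Cebpa was lower on high-fat diet (-0.50 ± 0.09, adjusted p = 0.000624). Between strains, Il6ra, the interleukin-6 receptor, was higher in 129S1/SvImJ on high-fat diet, at 144 ± 26.0 CPM and 78.1 ± 42.2 CPM in C57BL/6J (SD, n = 6 and 7; 0.88 ± 0.27, adjusted p = 0.0148), and on chow Nr1h4, the bile acid receptor, was higher (0.25 ± 0.08, adjusted p = 0.0174). Of the 2 regulator calls for diet in C57BL/6J, 1 held whichever library was left out. So did 1 of the 2 for strain on high-fat diet and the call of Cebpa. The call of Nr1h4 did not. None of the 12 passed in the interaction, where 0.296% of all genes passed. The part of these regulators in the levels of the members was not tested.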

How the data were processed

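Liver RNA of 24 mice was sequenced. Per the labels' protocols, QIAzol and miRNeasy columns were used for extraction, DNase and a ribosomal RNA depletion kit followed, and a directional kit made the libraries. DESeq2 1.26.0, STAR 2.5.4b, Bowtie2 2.2.3, Trimmomatic 0.36 and the build mm10 are listed in the submitters' processing notes, without roles. The annotation release and strand setting behind the counts are, in the sources used here, not given. Raw counts per gene were deposited by the authors, and their 24 files of single libraries equal the columns of the matrix. Nothing in the labels says that mice were pooled.

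Identifiers were matched without version to GENCODE M21: 53582 of 53677 matched, and the other 95 held 0.00747% of counts. Groups follow the strain and diet labels. Counts were fitted in R 4.3.3 with edgeR 4.0.16 (filterByExpr, trimmed mean of M-values, robust quasi-likelihood, 1 mean per group over all 24 libraries), and p-values were Benjamini-Hochberg adjusted over the 14533 genes tested. CPM and TPM were computed from the counts, TPM over merged exon lengths; log2 fold changes use a prior count of 0.125. Log2 ratios of members use raw counts + 0.5 within a library, and exact permutation tests. Promoters come from RefSeq, GRCm38.p6. Figures were drawn with matplotlib 3.10.9.

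Counts of a library limit precision through its total, and SE and SD cover the spread between mice. The identifiers of the mice in each group carry 2 numbers, found in no other group, whose meaning the labels do not give; a fit with 1 mean per number was an alternative. Reads of 129S1/SvImJ were counted against a C57BL/6J genome, which can lower genes that differ in sequence; its part in the strain differences was not tested. Full statistics are given for up to 8 called members with the smallest p per comparison and for C3, Hc, C9, F2, Fga, Fgb, Fgg and Serpinc1; up to 4 called genes per comparison are named from each further list. Results for some genes of the further lists are not reported here. The members and lists were chosen with earlier results of these data known. Alternatives were DESeq2 1.42.0 and limma-voom (limma 3.58.1), relative log expression scaling, no filter, each library left out, a replicate block, means per identifier number, 7SK settings, and leaving out libraries with adipocyte transcripts.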

Additional observations from a re-analysis of the deposited data

Results flagged for a closer look

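In 160 sets of 5 to 7 mice, each a member in 1 group, 9 held a mouse far from the others by Dixon's test at the 95% level, where chance gives about 1 in 20. C57BL/6J high-fat library 5 was low for C1ra (85.76 CPM, others 118.3 to 150.7) and C8g (175.8 CPM, others 222.5 to 260.2). C57BL/6J chow library 3 was high for Pros1 (111.5 CPM, others 73.93 to 84.0) and Kng1 (1985 CPM, others 1626 to 1674). In 129S1/SvImJ on high-fat diet, library 3 was low for Masp1 (294.5 CPM, others 320.7 to 335.4) and F13b (226.0 CPM, others 254.5 to 273.1), and library 6 was high for Klkb1 (295.9 CPM, others at most 265.7). In 129S1/SvImJ on chow, library 3 was high for Proc (497.3 CPM, others 414.8 to 428.3) and library 4 for Kng2 (209.2 CPM, others 174.5 to 181.5).

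The diet effect differed between strains by the test of the difference itself for 1 of the members. It was higher in 129S1/SvImJ than in C57BL/6J by 0.633 log2 units for C1ra (edgeR adjusted p = 0.0446).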

How the results depend on the processing

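Counts of called members are given as higher/lower on high-fat diet, or in 129S1/SvImJ. For diet in 129S1/SvImJ (4/1), DESeq2 gave 8 higher; 0 were lower within the low 7SK level and in either set of 12 by 7SK, and 0 higher in the upper 12. For diet in C57BL/6J (0/19), 0 were lower in the lower 12 by 7SK and 11 without the 2 C57BL/6J libraries at the ends. For strain on chow (5/5), 2 were higher within the low 7SK level, 3 higher and 3 lower in the lower 12, 0 higher in the upper 12, and 8 higher and 3 lower without the libraries at the ends. For strain on high-fat diet (29/1), 12 were higher and 0 lower in the lower 12, and 0 lower in the upper 12 and without the filter. In the interaction (1/0), members higher numbered 2 without the filter, 9 with DESeq2, 0 with limma-voom, 3 with a 7SK covariate, 3 within the low 7SK level, and 0 in each set of 12 and without the libraries at the ends. With 1 library left out, counts ran from 0 to 1 lower for diet in 129S1/SvImJ, 13 to 22 lower for diet in C57BL/6J, 3 to 7 higher and 3 to 6 lower on chow, 26 to 31 higher and 0 to 1 lower on high-fat diet, 0 to 5 in the interaction and 0 to 5 for ratios. The sets of 12 by 7SK and the libraries at the ends were chosen after seeing the data. The sign of 1 called value changed, but only to 0.00: Cfi for diet in C57BL/6J in the lower 12 by 7SK. The causes were not tested. A fit within the high 7SK level was not possible, with 2 libraries of 1 group.

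A fit with the replicate number as a block called 4/1, 0/18, 6/4, 27/0 and 0/0 members for diet in 129S1/SvImJ, diet in C57BL/6J, strain on chow, strain on high-fat diet and the interaction. Whether the replicate numbers pair mice cannot be told here. The 33 same-numbered pairs correlated between -0.22 and 0.31, and 14 were over 0.1, but differently numbered pairs were not compared. With 1 mean per identifier number, the calls were 4/1, 0/17, 4/4, 28/1 and 1/0: C8a (adjusted p = 0.0616) and C8b (0.0664) were not called for diet in C57BL/6J, C2 (0.0537) and F7 (0.0630) for strain on chow, and C8b (0.0579) for strain on high-fat diet. For all genes, counts over both directions for the lower and the upper 12 by 7SK were 642 and 236 for diet in 129S1/SvImJ (1514 with all libraries), 155 and 1248 for diet in C57BL/6J (2159), 1941 and 1501 for strain on chow (3636), 2799 and 3390 for strain on high-fat diet (5375), and 0 and 0 for the interaction (43). The interaction called 296 genes with DESeq2, 19 with limma-voom, 17 with the block, 121 with the 7SK covariate, 196 within the low 7SK level, 23 without the library with adipocyte transcripts and 12 without the libraries at the ends. With 1 library left out, diet in 129S1/SvImJ called 937 to 1671 genes and the interaction 5 to 170. The members with the fewest counts, Cfb and C2, are the ones that depth limits most.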
